A study of Mus musculus with 6 samples.

Results

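The profile described here is that of normal growing hair bulbs, taken from the 2 arrays of 6 in the series whose titles call them wild-type hair follicle. Both were hybridised with total RNA from hair bulbs of mice at postnatal day 9, in the first growth phase (anagen) of the coat. The other 4 arrays carry bulbs from skin areas named for deletion of Notch1 in the embryo, which lack functional Notch1, or in anagen, where functional Notch1 was still present by their label. They were not used, apart from the control probe sets behind 1 alternative background limit. The design text puts the 2 arrays, called replicates 1 and 2 below, in the same hybridisation set, and none of strain, sex, number of animals or dissection is given in the sources used here. Because they form a single group, no test between conditions was possible and none was made. The replicates are labelled biological, but nothing says that they came from separate animals, so the spread between them may be technical in part.

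The bulb is the swollen base of the follicle. Its matrix cells divide around a core of specialised fibroblasts, the dermal papilla, and their descendants move upward into concentric layers: the cortex and cuticle of the shaft, and the inner root sheath, which moulds the shaft and hardens before it. Melanocytes above the papilla hand pigment to the cortex, and the outer root sheath, continuous with the basal epidermis, encloses the whole. Wnt, Hedgehog, BMP and Notch signals in the bulb are known to help set which layer a matrix cell joins. In a bulk sample of this kind, fewer cells of a type and less RNA per cell cannot be told apart.

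Values are MAS5 signals, a linear measure of brightness per probe set, in arbitrary units. Across the 45037 probe sets that are not controls, the signal ran from 0.26 to 146422 on the first array, with a median of 253, and from 0.45 to 137356 on the second, with a median of 219.9. The table holds no detection calls, so a background limit was set at 69.8, the 95th percentile of 12 values from the 6 control probe sets of a bacterial gene, Bacillus dap, whose signals show no spiked RNA. A gene is given by its brightest probe set, and its percentile is its place among all probe sets by the mean of both arrays. Probe sets of the same gene differed widely in signal: among 9010 genes with several, the brightest and dimmest differed by a median of 5.63-fold. Probe sets differ in how strongly they bind. Position along the transcript may matter too, as the 3' control probe set of Gapdh exceeded the 5' one 5.45- and 5.03-fold. What sets the range was not tested. The order of signals is therefore an order of brightness and not of RNA amount, and percentiles below are to be read that way.

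The 6 genes chosen to mark the layers of the bulb were all above background on both arrays. Krt71, a keratin of the inner root sheath, gave 79355 and 99004. Krt35, an early keratin of the shaft, gave 65641 and 60194, and Dct, an enzyme of melanin synthesis in melanocytes, gave 61315 and 69526. All 3 lay in the top 1% of probe sets, at percentiles 99.8, 99.6 and 99.6. Shh, a secreted signal made on one side of the matrix, gave 18376 and 18344, and Lef1, the transcription factor of Wnt signalling in matrix and papilla, 10019 and 9226, and both were in the top 10%. The other probe set of Shh gave only 71.0 and 86.5, just over the limit, and that of Lef1 2030 and 2506. Crabp1, a retinoic acid-binding protein of the papilla, was the dimmest of the 6 at 1018 and 1016, percentile 71.0. Between the arrays, Krt71 differed most, by 0.32 on the log2 scale (replicate 2 minus replicate 1), while Shh and Crabp1 differed by -0.00 and -0.00.

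The sequences before the start of the genes that led 2 layers are shown because they differ in a plain feature. Windows are those of RefSeq on GRCm38.p6, and 14452 of 18193 measured genes had one. The 250 bases before each start were searched for TATAAA on the gene's strand, the core of the TATA box that positions transcription, and for CATGTG on both strands, an E-box form bound by the melanocyte factor Mitf. Of the inner root sheath keratins, 5 of the 6 in the top 10% of signal held TATAAA within the last 50 bases, and Krt72 did not. Of all measured genes with a window, 3.3% held it there. Each line gives the 120 bases before the start, with TATAAA in capitals.
Krt25, chr11:99322952-99323071, minus strand: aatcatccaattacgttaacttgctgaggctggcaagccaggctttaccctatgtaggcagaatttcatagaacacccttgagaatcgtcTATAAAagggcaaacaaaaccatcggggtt
Krt27, chr11:99351119-99351238, minus strand: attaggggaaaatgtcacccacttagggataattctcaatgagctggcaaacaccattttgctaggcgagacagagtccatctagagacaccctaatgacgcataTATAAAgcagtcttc
Krt28, chr11:99374904-99375023, minus strand: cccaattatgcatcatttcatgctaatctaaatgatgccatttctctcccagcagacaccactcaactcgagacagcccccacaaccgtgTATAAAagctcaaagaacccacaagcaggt
Krt71, chr15:101743098-101743217, minus strand: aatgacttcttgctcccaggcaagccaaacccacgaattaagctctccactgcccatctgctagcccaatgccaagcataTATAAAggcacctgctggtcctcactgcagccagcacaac
Krt73, chr15:101802361-101802480, minus strand: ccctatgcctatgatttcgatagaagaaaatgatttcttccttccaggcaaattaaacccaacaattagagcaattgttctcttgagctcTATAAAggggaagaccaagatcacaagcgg
Krt72, chr15:101786521-101786640, minus strand: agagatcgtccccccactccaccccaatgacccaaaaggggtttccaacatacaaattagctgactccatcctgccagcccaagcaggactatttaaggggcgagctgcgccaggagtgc
Krt26, chr11:99337966-99338085, minus strand: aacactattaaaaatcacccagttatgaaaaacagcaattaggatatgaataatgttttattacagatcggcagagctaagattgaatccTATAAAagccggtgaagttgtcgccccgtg
In the lines for Krt25, Krt26, Krt28 and Krt73 the capitals begin 30 bases before the start, in Krt71 40 and in Krt27 15. Krt26, at percentile 74.4, carried the same letters at the same place as Krt25, at 99.95. Over the inner root sheath list, 8 of 14 genes with a window held TATAAA (57.1%), against 6.73% of all measured genes and 5.39% of those in the top 10%. It was also held by 6 of 14 epidermal differentiation genes (42.9%), by 28 of 36 keratin-associated protein genes (77.8%), many of them dim here, and by 1 of 38 ribosomal protein genes (2.63%), the brightest list. In the shaft lists, 3 of 4 cortex genes (75%) and 2 of 3 cuticle genes (66.7%) held TATAAA, so it was not particular to the inner root sheath.

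CATGTG stood before 6 of 12 melanocyte genes with a window, which is 50%, against 10.4% of all measured genes. The 3 enzymes of melanin synthesis all held it. The lines below give 250 bases for Dct, where the letters lie far from the start, and 120 for the other two, with CATGTG or its complement CACATG in capitals.
Dct, chr14:118052247-118052496, minus strand: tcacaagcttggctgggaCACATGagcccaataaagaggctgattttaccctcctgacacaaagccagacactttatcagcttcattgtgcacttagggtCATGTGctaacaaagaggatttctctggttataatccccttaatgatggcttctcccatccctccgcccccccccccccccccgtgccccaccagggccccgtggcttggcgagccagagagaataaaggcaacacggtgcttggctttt
Tyr, chr7:87493513-87493632, minus strand: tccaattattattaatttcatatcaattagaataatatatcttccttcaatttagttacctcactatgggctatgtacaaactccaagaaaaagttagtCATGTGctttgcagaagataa
Tyrp1, chr4:80834093-80834212, plus strand: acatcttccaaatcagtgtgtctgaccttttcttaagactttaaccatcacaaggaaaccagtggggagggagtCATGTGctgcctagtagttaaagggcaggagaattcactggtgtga
In Tyr the capitals begin 21 bases and in Tyrp1 46 bases before the start, and in Dct they begin 232 and 150 bases before it. The other 3 with CATGTG were Trpm1, Oca2 and Mc1r. It stood before 0 of the 14 inner root sheath and 5 of 14 epidermal differentiation genes (35.7%). CTTTGA, a core recognised by Lef1, was held on either strand by 2 of 14 inner root sheath, 3 of 12 melanocyte and 3 of 4 shaft cortex genes, against 14.2% of all measured genes. These are matches of letters in a fixed window, with no test, and the motifs were picked after the lists were known.

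**Figure D1:**
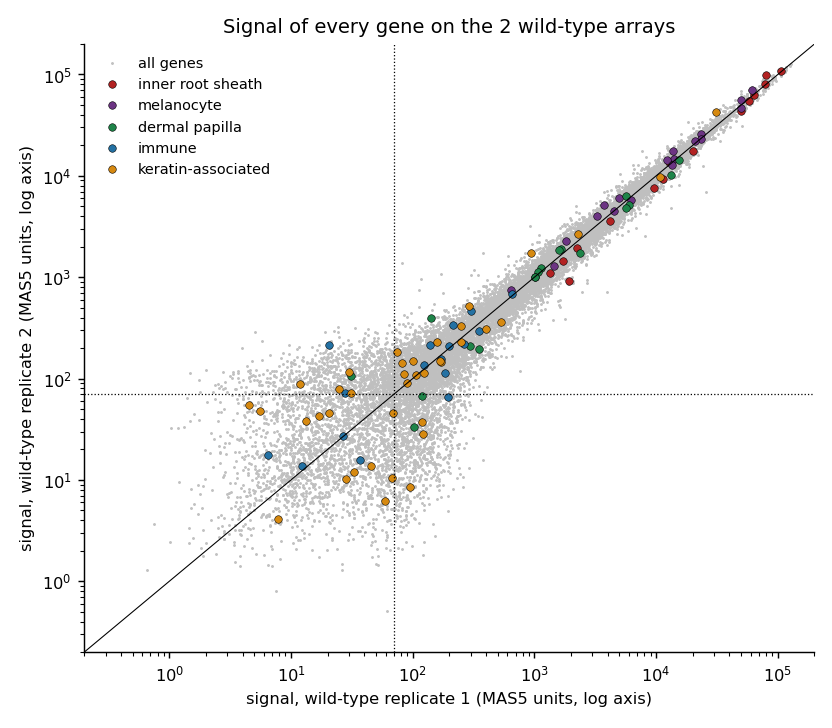
Signal of each gene on the first (x axis) and second (y axis) wild-type array, in MAS5 units on log axes; each point is a gene, coloured by list, the solid line marks equal signal and dotted lines the background limit of 69.8. Melanocyte and inner root sheath genes sit close to the line in the upper right, while many keratin-associated protein genes lie in the scattered region under the limit.

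The brightest genes were mostly those of protein synthesis. Of the 40 genes with the highest mean signal, 25 encode ribosomal proteins, led by Rpl13a at 127487 and 125518 and Rps18 at 125523 and 120856. The others of the 40 from the ribosome were Rps3a1, Rplp2, Rps29, Rpl4, Rps4x, Rpsa, Rpl38, Rps2, Rpl41, Rps28, Rpl22, Rps20, Rps7, Rpl7a, Rps3, Rps14, Rpl10a, Rpl8, Rpl6, Rpl35, Rpl19, Rps10 and Rps9. Genes that serve translation or RNA handling were Eef1a1, the factor that brings aminoacyl-tRNA to the ribosome, the poly(A)-binding protein gene Pabpc1, Eif4h, Serbp1, Hnrnpab and the nucleolar Npm1. Uqcrb, a subunit of respiratory complex III, Tpt1, Hmgn1, Itm2b, Dynll1 and cytoplasmic Actg1 completed the general set.

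Among the 40, 3 genes were of keratinocytes. Krt25 ranked 8th of all genes, at 105557 and 108625, and Krt71 29th, and Fabp5, a fatty acid-binding protein of keratinocytes, gave 105536 and 98816. Signals of the 40 ran from 74854 to 127487, and the arrays differed by a median of 0.06 log2 units, with Krt71 the farthest apart at 0.32. The set depended on how a gene was represented. With all probe sets of a gene averaged in place of the brightest, 20 of the 40 were shared, and without probe sets whose suffix (_s_at or _x_at) marks matches to other genes, 26 were. Ribosomal protein genes then numbered 17 and 16 of the 40, in place of 25. Of the 40, 15 rested on _x_at and 3 on _s_at probe sets. The top 1% of probe sets held 27.5% of all summed signal on the first array and 27.6% on the second, and 424 of its 450 probe sets (94.2%) were the same on both.

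Of 43 ribosomal protein genes with a probe set of their own, 42 were above background on both arrays, where 75.7% of all genes were, and 36 lay in the top 10% of probe sets, where 16.5% of all genes did. The exception was Rps16, at 2.52 and 38.0. Every growing cell needs this protein, so a dim probe set does not show that a transcript is absent. Of 87 genes of the respiratory chain and ATP synthase, including assembly factors, 83 were above background and 66 in the top 10%. The brightest after Uqcrb were Atp5g3 at 65728 and 72476, Cox6a1 at 64748 and 73385, Cox5b at 61888 and 75766 and Cox5a at 58336 and 58188. On the second array 70 of these 87 genes were higher, with a median difference of 0.17, while over all genes 9046 of 18193 were higher and the median was -0.00.

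The inner root sheath was the brightest of the lists that mark a layer. All 15 measured genes were above background, 10 lay in the top 10% and 6 in the top 1%, where 1.28% of all genes lay, and the median percentile was 96.2 against 64.9 for all genes. Krt25, Krt27 and Krt28, which encode acidic (type I) keratins, gave 105557 and 108625, 78204 and 79769 and 64254 and 62229. Their basic (type II) partners Krt71 and Krt73 gave 79355 and 99004 and 58257 and 54706. These 5 genes lay within the brightest 109 of 18193, and on both arrays each exceeded the other keratins of the list. Krt72, a keratin of the sheath cuticle, gave 9691 and 7619.8 and Krt26, a keratin of the same sheath expressed late, 1916 and 923, the only gene of the list more than 2-fold apart between arrays.

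Genes that shape or specify the sheath were bright as well. Tchh, whose product trichohyalin fills the hardening sheath cells, gave 49469.9 and 43994. Gata3, a transcription factor needed for this lineage, gave 20278 and 17484, and Cux1, a repressor made in the inner root sheath, 12847 and 13722. Padi3, which converts arginine of trichohyalin to citrulline, stood at 11485 and 9334, above Padi4 at 1709 and 1455 and Padi1 at 1348 and 1105. The transglutaminase gene Tgm3, which cross-links trichohyalin, gave 2242 and 1944 and Gsdma 4162 and 3587. After averaging a gene's probe sets, 9 of the 15 stayed in the top 10%, where 7.46% of all genes then lay. The summed signal of the list was 500773 and 505500 on the 2 arrays, yet 11 of its 15 genes were lower on the second, with a median difference of -0.20. Of all 18193 genes 9147 were lower there.

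Shaft keratins covered a wide range of signal. Krt35 led the cortex list, followed by Krt31 at 10755 and 9626, Krt33a at 4711 and 5788, Krt83 at 2357 and 2637 and Krt36 at 2499 and 2185, all of them hair keratins. Of the 9 measured cortex genes, 6 were above background and 3 in the top 10%, against 75.7% and 16.5% of all genes. Krt33b at 60.4 and 197, Krt34 at 48.2 and 165 and Krt86 at 103 and 32.7 each had 1 array under the limit. Krt85 had no probe set of its own and was not analysed here. In the shaft cuticle, S100a3, a calcium-binding protein of cuticle cells, gave 30804 and 36744, Krt32 6675 and 4021 and Krt82 5322 and 3331. Both of these cuticle keratins were lower on the second array, by 0.73 and 0.67 log2 units, and S100a3 was higher by 0.25.

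Keratin-associated proteins, which embed the keratin filaments of the shaft, were dim as a group. Of 56 genes in the annotation 38 had a probe set of their own, 19 of these were above background on both arrays, and the median percentile was 29.2. Over all genes 75.7% were above background, 16.5% lay in the top 10% and the median percentile was 64.9. The bright members were Krtap8-1 at 31211 and 42221 and Krtap11-1 at 10829 and 9705, the only 2 in the top 10%. Without _s_at and _x_at probe sets the count was 1, since Krtap11-1 rests on an _s_at probe set. Next came Krtap15 at 2301 and 2669, Krtap7-1 at 934 and 1735 and Krtap12-1 at 536 and 358. The 19 that were not above background were Krtap3-1, Krtap4-1, Krtap4-2, Krtap4-7, Krtap4-16, Krtap5-3, Krtap5-4, Krtap5-5, Krtap6-2, Krtap6-3, Krtap6-5, Krtap9-3, Krtap13, Krtap13-1, Krtap16-3, Krtap19-2, Krtap19-3, Krtap19-5 and Krtap19-9b. None of these exceeded 123, the value of Krtap3-1 on the first array. Between arrays 12 of the 38 differed at least 2-fold, where 2431 of all 18193 genes did. All of these 12 but Krtap5-2 were under the limit on at least one array. Genes of this family resemble each other closely, so some probe sets may take signal from a related gene.

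**Figure D2:**
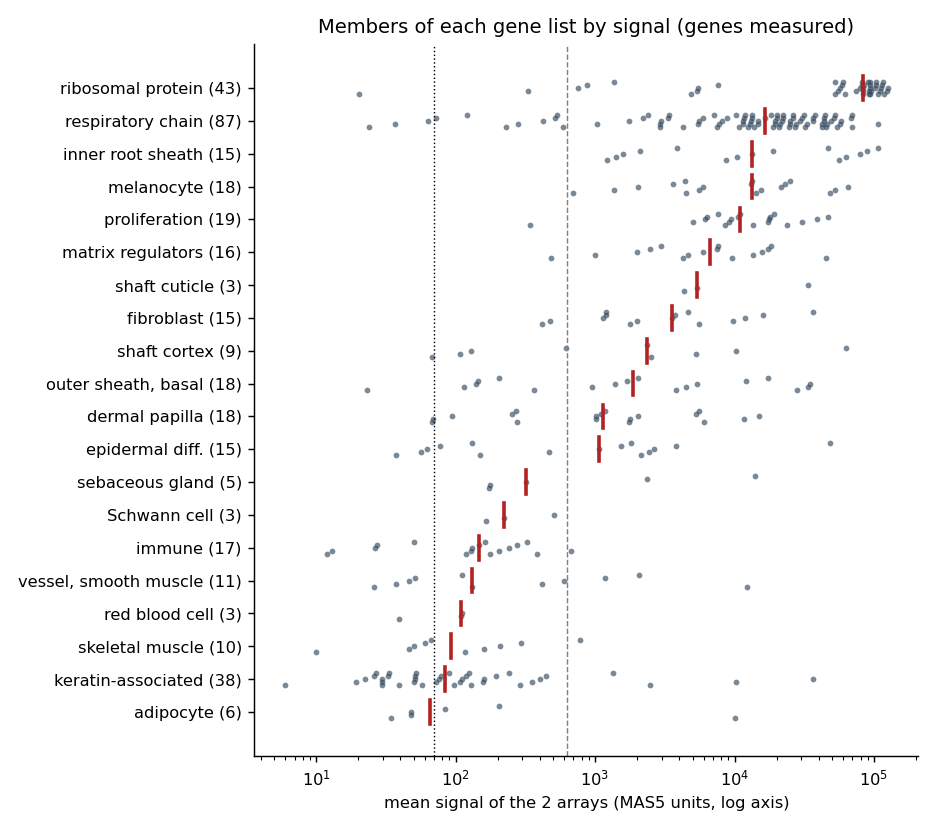
Mean signal of the 2 arrays (x axis, MAS5 units, log scale) for each measured member of each list, with lists ordered by median percentile and the number of genes in brackets; red bars are medians, the dotted line is the background limit of 69.8 and the dashed line the median of all genes. Inner root sheath and melanocyte lists stand far to the right, and keratin-associated, muscle and adipocyte lists lie around the limit.

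All keratin genes were also followed along their chromosomal clusters, since neighbours there often serve the same layer. Of 27 genes of the type I cluster 24 were measured, with 18 above background and 10 in the top 10% of probe sets. Of 26 genes of the type II cluster, which ends with the type I gene Krt18, 24 were measured, with 18 above background and 5 in the top 10%. Over all genes these shares were 75.7% above background and 16.5% in the top 10%, so the counts above background were near the general share in both clusters. Krt25, Krt26, Krt27 and Krt28 are consecutive in the first, and all but Krt26 were at or above 62229 on both arrays. Krt71, Krt72 and Krt73 are consecutive in the second and gave at least 7620 on each array. Their neighbours on either side contrasted. Krt2, a keratin of upper epidermis that follows Krt73 in the cluster, gave 58.5 and 97.0. Krt5, the basal keratin that precedes Krt71, gave 29252 and 27272, and Krt10, which follows Krt28, 2255 and 3037. Among keratins known mainly from other epithelia, Krt13 and Krt4, of mucosa such as the oesophagus, gave 60.2 and 8.86 for the former and 244 and 11.5 for the latter, and Krt76 gave 20.7 and 20.5. Krt8 and Krt18, the pair of simple epithelia, were above background, with 281 and 287 for the former and 479.5 and 464 for the latter. Krt23, not in any list, was named after its value was seen, at 5793 and 7770.2 and percentile 92.1.

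**Figure D3:**
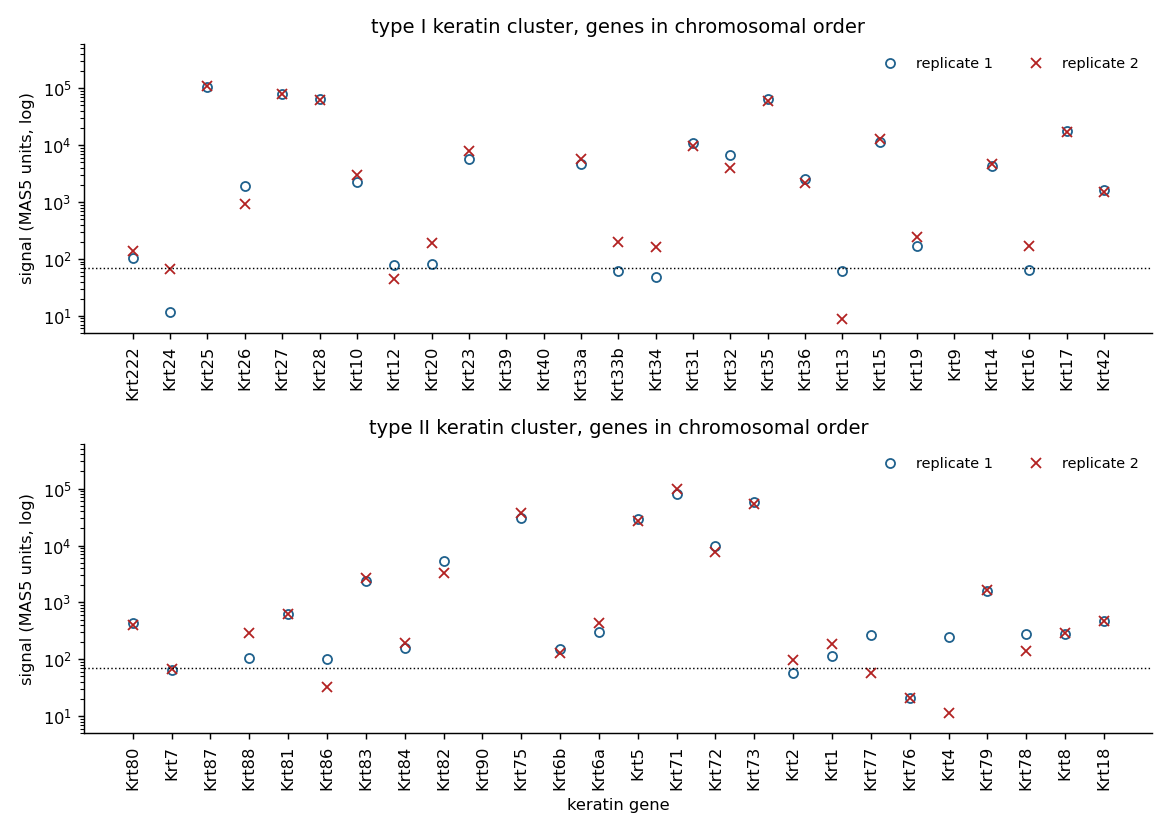
Signal (y axis, MAS5 units, log scale) of each keratin gene in chromosomal order (x axis) in the type I (top) and type II (bottom) clusters, with circles for replicate 1, crosses for replicate 2, a gap for a gene not measured, and the background limit as a dotted line. Krt25, Krt27, Krt28, Krt35, Krt71 and Krt73 lie at 54706 or above on both arrays, and dim genes such as Krt4 show the widest gaps between arrays.

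Melanocyte genes were bright on both arrays. All 18 measured were above background, 12 lay in the top 10% and 3 in the top 1%, against 75.7%, 16.5% and 1.28% of all genes. The median percentile was 96.2. After Dct, Pmel, whose product forms the fibrils on which pigment is laid down, gave 49952 and 55483, Tyrp1 49881 and 46902, and Tyr, tyrosinase, the rate-limiting enzyme of melanin synthesis, 23467 and 26101. The glycoprotein gene Gpnmb stood at 23343 and 22864 and Ednrb, the endothelin receptor that melanoblasts need, at 21022 and 22039. Of the regulators, Mitf, the master transcription factor, gave 6183 and 5731, the receptor Kit 4468 and 4541, Mc1r, the receptor that sets the kind of pigment, 3255 and 4019, and Sox10 1811 and 2269.7. The lowest was Rab27a, which tethers pigment granules for transport, at 637 and 752. Arrays agreed closely, with no member 2-fold apart, 13 of 18 higher on the second and a median difference of 0.15. Of all 18193 genes 2431 were at least 2-fold apart and 9046 were higher on the second. After averaging a gene's probe sets, 7 lay in the top 10%, where 7.46% of all genes then lay.

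Regulators of the matrix were all above background, 16 of 16, with 9 in the top 10%, against 75.7% and 16.5% of all genes. Their median percentile was 92.0. The brightest was Ptch1, the Hedgehog receptor, whose own transcription rises with Hedgehog signalling, at 45417 and 44734. Shh followed, then the transcription factor gene Sox21 at 16966 and 17733, the BMP pseudoreceptor Bambi at 16545 and 14947 and the homeobox gene Msx2, needed for shaft formation, at 12009 and 14936. Further along were Dlx3 at 8207 and 7035, Hoxc13, which drives hair keratin genes, at 6466 and 5475, and Foxn1, the gene mutated in nude mice, at 4564 and 3979. Wnt10b was lowest at 555 and 412. On the second array 13 of the 16 were lower, by a median of 0.17 log2 units (difference -0.17), and none was 2-fold apart. Of all 18193 genes 9147 were lower there and 2431 were at least 2-fold apart. After averaging a gene's probe sets, 3 of the 16 lay in the top 10%, where 7.46% of all genes then lay. The other Ptch1 probe sets gave 704 and 207, and 222 and 124.

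Genes of dividing cells were bright. All 19 measured genes of proliferating cells were above background and 17 were in the top 10% (11 after averaging a gene's probe sets), at a median percentile of 95.4. Over all genes these shares were 75.7% and 16.5% (7.46% after averaging). Pcna, the sliding clamp of DNA polymerase, gave 44011 and 49459, Mki67, the gene of the Ki-67 antigen, 39459.7 and 38391, and Top2a, which untangles replicated DNA, 29962 and 30776. The helicase subunit genes Mcm7 and Mcm5 gave 22328 and 25160.2 for the former and 19349 and 19063 for the latter. Aurkb, a mitotic kinase, stood at 5042 and 4984. Tyms, thymidylate synthase, was the low exception at 290.5 and 393, and none of its probe sets exceeded 393.

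The outer root sheath and basal list was mixed: 16 of 18 measured genes were above background, 6 in the top 10% (3 after averaging a gene's probe sets), and the median percentile was 78.6. Over all genes these shares were 75.7% and 16.5% (7.46% after averaging), and the median percentile was 64.9. Trp63, the master factor of stratified epithelia, gave 36204 and 33300.2, Krt75, a keratin of the companion layer between the sheaths, 30621 and 36608, Krt5 29252 and 27272, Krt17 18018 and 16704 and Krt15 11281 and 12800.2. Krt14, the usual partner of Krt5 in basal cells, gave 4233 and 4740.1 from its brightest probe set. Lgr5, a marker of follicle stem and progenitor cells, gave 2050.3 and 1987. Sox9, a stem cell and outer root sheath factor, was near background at 159 and 131, with all 3 of its probe sets under 160. Krt16 (63.3 and 168) and Barx2 (24.3 and 22.2) were not above the limit on both arrays, and of the injury-inducible pair Krt6a and Krt6b, the signals were 298 and 435 for the former and 149 and 129 for the latter.

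Papilla genes covered a wide range. Of 18 measured, 15 were above background and 5 in the top 10% (3 after averaging a gene's probe sets), at a median percentile of 72.6. Over all genes 75.7% were above background and 16.5% in the top 10% (7.46% after averaging), at a median percentile of 64.9. Wif1, a secreted Wnt inhibitor, gave 15348 and 14409, Wnt5a 13132 and 10175, Bmp4 5698 and 6364, the protease gene Corin 5943 and 5176 and Trps1, a transcriptional repressor, 5709 and 4839. Wnt5a, Bmp4 and Trps1 are also made outside the papilla. Rspo3, which strengthens Wnt signalling, gave 1605 and 1868 and Vcan, the matrix proteoglycan versican, 1652 and 1891. Alpl, whose alkaline phosphatase stains the papilla, was uneven at 140.2 and 399.9, a difference of 1.41. Fgf10 (119.6 and 68.0), Sox2 (103 and 33.5) and Nog (31.3 and 105), the gene of the BMP inhibitor noggin, were not above the limit on both arrays. On the second array alone 3 members lay in the top 10%.

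Genes of general fibroblasts were all measured above background, 15 of 15, with 5 in the top 10% (1 after averaging a gene's probe sets) and a median percentile of 86.3. Over all genes these shares were 75.7% and 16.5% (7.46% after averaging). Dcn, the proteoglycan decorin, gave 30847 and 42673, the collagen genes Col3a1 and Col1a2 15344 and 16612 for the former and 8289.7 and 15345 for the latter, Sparc 7926 and 11657 and Postn 3918 and 7150.0. By their brightest probe sets, Dcn, Col1a2, Sparc, Postn and Col6a1 were each higher on the second array, by 0.47 to 0.89 log2 units. The dimmer probe set of Dcn was lower there, at 526 and 291, and so was one of Sparc, at 173 and 126. Another of Sparc, at 3641 and 4413, and the other ones of Col1a2 were higher. The summed signal of the list was 86230 on the first array and 113777 on the second. Of its genes 11 were higher on the second, with a median of 0.11, where 9046 of all 18193 genes were higher. Col1a1, which encodes the partner chain of Col1a2, gave 1086 and 1198, or percentile 72.6.

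Markers of cells outside the bulb were dim for the most part. Of 17 immune genes 10 were above background and 0 in the top 10%, against 75.7% and 16.5% of all genes. H2-Ab1, of antigen presentation, was the brightest at 658 and 679, then Csf1r at 301 and 459.5, Lyz2 at 349.9 and 296, Ctss at 216 and 338 and Cd74 at 264 and 221. Cd3e of T cells, Cd207 of Langerhans cells, C1qa and C1qc lay under 38 on both arrays, and C1qb, Fcer1a and Mcpt4 under the limit on one. The list summed to 2930 on the first array and 3248 on the second. Among 11 vascular genes Pecam1 (16.5 and 35.6), Cdh5 (74.8 and 18.2), Kdr (214 and 8.05), Vwf (4.99 and 96.7) and Myh11 (60.7 and 13.7) were not above background on both arrays. Acta2, the actin of contractile cells and of the sheath around the follicle, stood out at 12323 and 12210.5, followed by Tagln at 2067 and 2041, Cspg4 at 1294 and 1074, Tek at 398 and 794 and Eng at 392 and 441. The list summed to 16987 and 16855.

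In skeletal muscle 5 of 10 genes were above background, led by Mylpf at 807 and 745, Atp2a1 at 299 and 292 and Acta1 at 167 and 251, with Myh1 and Ckm behind them and Mb, Tnnc2, Myh4, Myh2 and Tnnt3 not above it, and the list summed to 1839 and 1744. Of 6 adipocyte genes 2 were above it, Fabp4 at 11506 and 8617 and Adipoq at 252 and 155, and Retn, Pparg, Cidec and Lep were not. The sums of 12071 and 8886 were mostly that probe set of Fabp4, and another one of Fabp4 gave 8203 and 8824. Red blood cell genes were near the limit, with Hba-a1 at 131 and 88.5, Alas2 at 149 and 74.9, and Slc4a1 was not above it. The list summed to 319 and 203. Of 3 Schwann cell genes S100b was brightest at 433 and 589, then Ngfr at 148 and 298 and Mbp at 130.1 and 202. By these brightest probe sets each was higher on the second array, with sums of 711 and 1090. The other Ngfr probe sets were lower there, at 40.7 and 13.1, and 8.01 and 5.82. Most dimmer ones of Mbp were lower there too, such as that at 96.1 and 51.5, but not that at 14.7 and 71.0. The dimmer one of S100b was higher there, at 119 and 171. The sebaceous gland list held 5 measured genes, all above background, with Scd1, a fatty acid desaturase also made elsewhere in skin, at 13846 and 14128, Dgat2 at 2314 and 2409, Elovl3 at 314 and 327, Mc5r at 164 and 188 and Scd3 at 188 and 162. Over all genes 75.7% were above background. The part that cells of these kinds take in the profile was not tested.

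Of 15 genes of epidermal differentiation 11 were above background and 1 was in the top 10%, against 75.7% and 16.5% of all genes. That one, Sprr1a, a precursor of the cornified envelope, gave 48833 and 48303. Klk7, a protease of the stratum corneum, gave 3371 and 4209, Krt10, a keratin of suprabasal epidermis, 2255 and 3037, Calm4 1848 and 3019 and Cdsn 2683 and 1613. Lor and Ivl, which encode the envelope proteins loricrin and involucrin, were at 1449 and 1631 for the former and 2029 and 1569 for the latter. Krt1, the partner of Krt10, was at 113 and 187, and Krt2, Flg, Lce3c and Sprr1b were not above the limit on both arrays.

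Signalling genes were read by their place in each pathway. In the Wnt list 28 of 31 measured genes were above background and 13 in the top 10% (5 after averaging a gene's probe sets). Over all genes these shares were 75.7% and 16.5% (7.46% after averaging). Ctnnb1, the gene of beta-catenin, which carries the signal to the nucleus and also joins cells, gave 80279.8 and 75454, and the receptor Fzd1 29601 and 29086. Of the ligands Wnt4 and Wnt5a were brightest, with Wnt4 at 19389 and 17871, while Wnt3 gave 281 and 224. Axin2, a feedback inhibitor induced by Wnt, gave 6535 and 6347. Dkk1, Lrp5 and Wnt3a were not above the limit on both arrays, and 24 of the 31 genes were lower on the second array, where 9147 of all 18193 genes were.

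In the Hedgehog list all 15 measured genes were above background and 5 in the top 10% (0 after averaging a gene's probe sets). For this list and the BMP list, the shares over all genes were 75.7% and 16.5% (7.46% after averaging). After Ptch1 and Shh came Smo, which passes the signal inward, at 8483 and 8093, and the transcription factors Gli3 and Gli2 at 6931 and 7585 for the former and 6511 and 6133 for the latter, with Gli1, itself a target, at 2158 and 1870.2. The ligands Dhh and Ihh gave 71.6 and 137 for the former and 103 and 78.7 for the latter, just over the limit. In the BMP list 21 of 23 were above background and 11 in the top 10% (6 after averaging a gene's probe sets). The receptor genes Bmpr2 and Bmpr1a gave 28451 and 26855 for the former and 16082 and 17010.3 for the latter, the mediators Smad1 and Smad4 24291 and 22201 for the former and 18828 and 15500.1 for the latter, and the target genes Id2 and Id3 17795 and 19207 for the former and 15118 and 15779 for the latter. Of the antagonists Sostdc1 gave 1752 and 2006 and Chrd 202 and 165, and Nog and Grem1 were not above the limit on both arrays.

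Of 21 Notch pathway genes 20 were above background and 7 in the top 10% (2 after averaging a gene's probe sets). For this list and the growth factor list, the shares over all genes were 75.7% and 16.5% (7.46% after averaging). The ligand gene Jag1 gave 30143 and 26840.2, the protease gene Adam10, which cuts the receptor, 24765 and 23836, and the feedback inhibitor Nrarp 24710.1 and 26298. Notch1 gave 23750.2 and 34070.4 and Notch2 12835 and 9218, and Notch4, an endothelial receptor, 147 and 159. Hes5 was not above the limit on both arrays. In the growth factor list 24 of 25 genes were above background, all but Fgf10, with 7 in the top 10% (0 after averaging a gene's probe sets). Igfbp4, a binding protein of insulin-like growth factors, gave 22544 and 27211, and of the receptors Erbb3 gave 16872 and 13634, Fgfr3 14268 and 9799 and Egfr 10652 and 9800.1. Kitl, the ligand on which melanocytes depend, gave 14045 and 12383. Fgf5, known to promote the end of anagen, gave 4352 and 4838, and the ligands Igf1 and Hgf 347 and 300.5 for the former and 107 and 93.6 for the latter.

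The 2 arrays agreed most closely among bright probe sets. Over all 45037 probe sets the log2 signals correlated with Pearson r = 0.951 and Spearman rho = 0.930, and over the 30299 above background on both with 0.972 and 0.958. Probe sets are not independent replicates, and they share the arrays' scaling and their own binding strength, so these values only describe. Of all probe sets 20.5% differed at least 2-fold between arrays, but in the brightest 10% of probe sets 99.7% lay within 2-fold and 97.9% within 1.5-fold, with a standard deviation of the log2 difference of 0.22. In the second-dimmest bin of 10% 38.9% lay within 2-fold and that deviation was 1.44. It fell in each bin from there to the brightest. In the dimmest bin 80.4% lay within 2-fold, with a deviation of 0.74, on a scale where the addend of 17.1 narrows differences between low signals. The difference of Col1a2, 0.89, the largest of the fibroblast list, thus stands beside a deviation of 0.22 among probe sets of its brightness, and that of Krt33b, 1.46, beside 0.95. Each deviation is a spread across probe sets of these 2 arrays and not the error of a single gene.

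**Figure D4:**
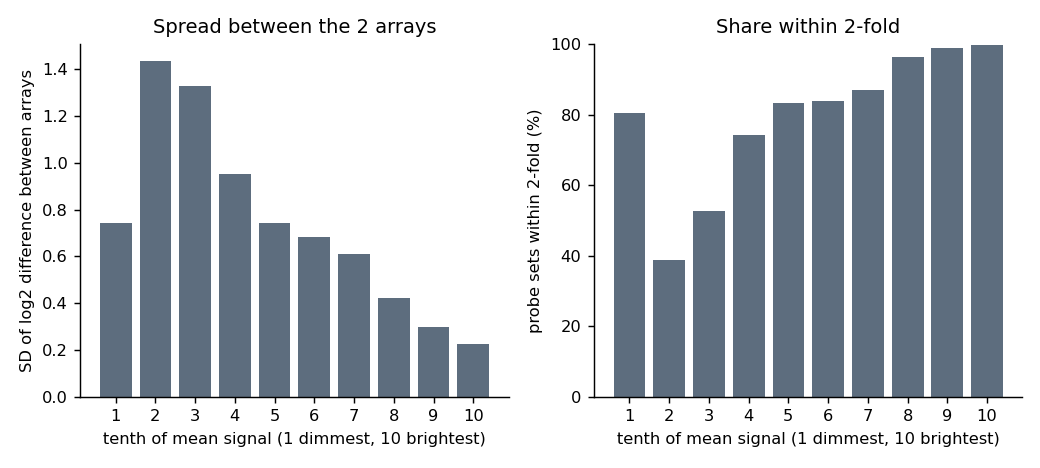
Standard deviation of the log2 difference between the 2 arrays (left) and percent of probe sets within 2-fold (right), in bins of 10% by mean signal from 1 (dimmest) to 10 (brightest), with about 4504 probe sets in each bar. The deviation is widest in the second bin, 1.44, and narrowest in the brightest, 0.22.

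Few genes above background stood apart between the arrays. Of the 13751 genes whose brightest probe set was above the limit on both, 376 (2.73%) differed at least 2-fold, 173 (1.26%) higher and 203 (1.48%) lower on the second. Over all 30299 probe sets above the limit on both, dimmer ones of a gene included, 92.0% lay within 2-fold. The 10 highest on the second array were 2610316D01Rik, Hoxa9, Cps1, Fbxo10, Capn11, Zap70, Susd5, Gm6211, Grp and Myoz1. 2610316D01Rik gave 81.3 and 1392 and Hoxa9, a homeobox gene of body position, 118 and 959.9. A second probe set of Hoxa9 went the other way, at 165 and 44.7, and so did a second one of 2610316D01Rik, at 186 and 25.5. Cps1, an enzyme of the urea cycle, gave 113 and 752, and Zap70, a kinase of T cells, 378 and 1717, while its other 2 probe sets were under 53 on both arrays.

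The 10 highest on the first array were 9030607L20Rik, Mid1, Ifnz, C130075A20Rik, Tns2, Erdr1, Zfp626, Mss51, Crybb3 and Gm13306. Mid1, a microtubule-associated ubiquitin ligase gene, gave 3962 and 709.6, and Erdr1 gave 25691 and 6934 from an _x_at probe set, while its other probe set gave 156 and 203. Among the genes of the layer lists the brightest probe set stood 2-fold apart while above the limit on both arrays in Krt26, Alpl and Krtap5-2 alone. Among pathway and general lists this was so of Lfng, which modifies Notch receptors (609 and 1316), the respiratory genes Atp5md and Ndufb1, and the ribosomal genes Rps6 and Rpl39. Of the 3005 genes in the top 10%, 4 were 2-fold apart by their brightest probe set: Erdr1, Neat1, a nuclear noncoding RNA (13248 and 4804), Rps4l (7728 and 17433) and Atp5md (5074 and 10452). Dimmer probe sets of a gene could stand farther apart, as in Cux1, where one gave 12612 and 3087 and another 5962 and 1481.

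**Figure D5:**
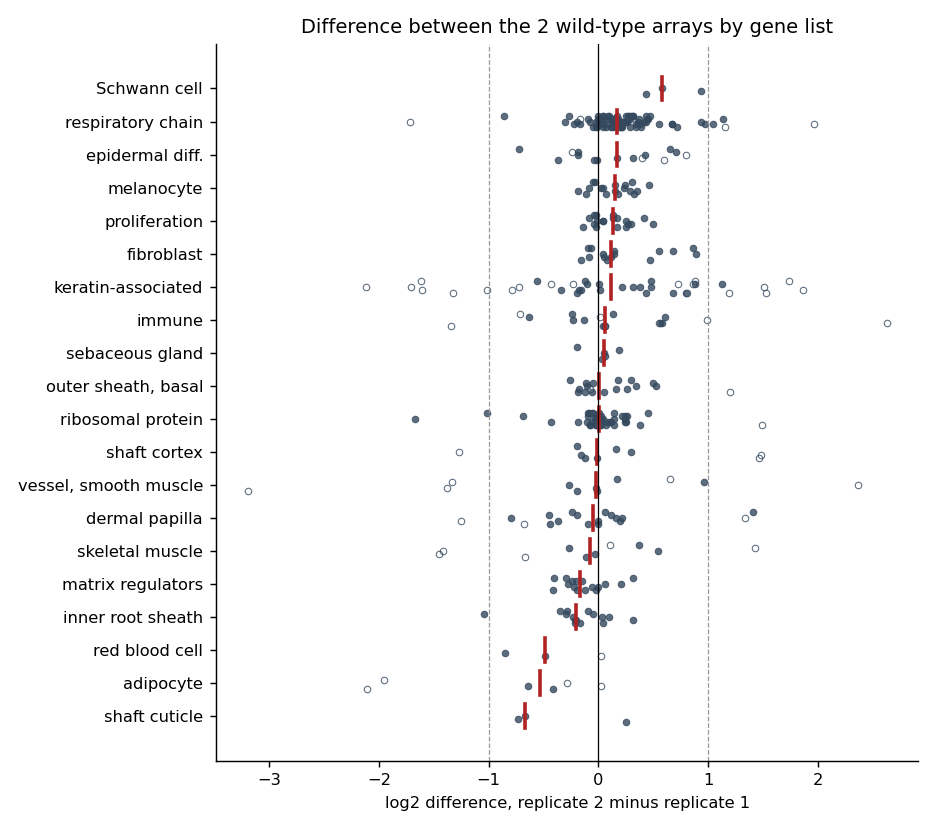
Log2 difference of signal, replicate 2 minus replicate 1 (x axis), for each member of each list, ordered by median (red bars); filled points are genes whose brightest probe set was above background on both arrays, open points are not, and dashed lines mark 2-fold. Shaft cuticle (median -0.67, 3 genes), adipocyte (-0.53), red blood cell (-0.49, 3 genes), inner root sheath (-0.20) and matrix (-0.17) lists lie to the left, and Schwann cell (0.58, 3 genes), respiratory chain (0.17) and melanocyte (0.15) genes to the right.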

How the data were processed

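Total RNA from hair bulbs was labelled with biotin and hybridised to oligonucleotide arrays. The deposited values are linear signal intensity values, one per probe set, made with MAS5 per the submitters' processing notes. For MAS5, neither version nor settings is given in the sources used here. The mean between the 2nd and 98th percentiles was 1500 on both wild-type arrays, found from the values, and they were not rescaled. The 3'/5' signal ratio was 2.71 and 2.66 for beta-actin and 5.45 and 5.03 for Gapdh. Of 45101 probe sets, 64 controls were left out. Platform annotation gave 34945 one gene symbol, 932 several and 9160 none; only the first were named. RefSeq tables of GRCm38.p6 gave gene order, promoter windows and symbols by gene identifier, of which 34741 matched and 0 changed. Log2 values used an addend of 17.1, the 10th percentile. Of 5 Bacillus control genes, 4 showed spiked RNA. Python 3.11.15, pandas 2.3.3, numpy 2.4.6 and matplotlib 3.10.9 were used, and the agreement step was tested on simulated data. Alternatives were other limits, scalings, pseudocounts, probe set rules and each array alone. Named genes were the 40 brightest, the 6 markers, the 5 brightest of each list with those not above background, and the 10 farthest apart between arrays in each direction; others were added for their role, after values were seen. Members and lists were chosen with earlier results of these data known.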

Additional observations from a re-analysis of the deposited data

Results flagged for a closer look

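Control probe sets were left out of the profile, and 2 kinds of those that match mouse RNA are given here. Both gave signal above the background limit of 69.8 on both arrays, as did the spiked bacterial controls. So did other controls for mouse RNA, among them those for beta-actin, Gapdh and the B1 repeat (8587 and 4845). The 3 probe sets for 18S ribosomal RNA had a mean signal of 43242 over both arrays, from 35235 to 52337. A probe set for the B2 repeat, a short interspersed element present in many transcripts, had a mean of 100604, at 109986 on the first array and 91223 on the second. Another probe set with b2 in its name gave 3308 and 1989. These values are given as signal in data that the profile did not use.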

How the results depend on the processing

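No paired analysis was possible because the 2 arrays form 1 group and no result comes from a test. Counts of probe sets above background ran from 28421 to 34127 over all alternatives, against 30299. Over all probe sets Pearson r was 0.951, against 0.923 with a pseudocount of 1, 0.975 with one of 100 and 0.952 with quantile normalization. Over probe sets above background alone r was 0.972 and Spearman rho 0.958, against 0.930 over all. Of the 40 brightest genes, 20 were shared after averaging a gene's probe sets and 26 without _s_at and _x_at probe sets. Red blood cell genes above background numbered 1 with the 99th percentile limit or the limit from all 6 arrays, and 0 with the limit from 20 bacterial probe sets. Muscle genes numbered 3 and Schwann cell genes 1 after averaging a gene's probe sets. Leaving out each array in turn gave 6 to 8 muscle genes. Of the other counts of genes above background, each stayed within 1.5 times under every alternative run. Averaging a gene's probe sets moved percentiles by a median of 5.54 points. The limit rests on 12 values, and with 2 arrays no dim gene's level is known closely. The 20-probe-set limit and the suffix rule were chosen after seeing the data.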

Other observations

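Genes linked to sex were read in both arrays, chosen after the values were seen. Xist, the RNA that coats the inactive X chromosome in female cells, gave 16000.2 and 15916, in the top 10% of probe sets. The Y-linked genes Eif2s3y and Kdm5d gave 32.2 and 5.35 for the former and 56.8 and 24.2 for the latter, under the background limit of 69.8. Uty, also Y-linked, gave 127 and 84.4 from the brightest of its 4 probe sets, above that limit. Its second value was under 89.9, the limit from 20 bacterial probe sets. The labels give no sex. Mid1 and Erdr1, both among the genes farthest apart between the arrays by their brightest probe sets, are known to lie at or near the pseudoautosomal region shared by the X and Y chromosomes. The other probe set of Erdr1 was higher on the second array, at 156 and 203. Those of Mid1 were split, at 140 and 75.7, and at 17.3 and 112. A link between these differences and sex was not tested.

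Hox genes, which record position along the body, were measured in 33 cases, of which 21 were above background and 2 in the top 10%, against 75.7% and 16.5% of all genes. The brightest were Hoxd8 at 6439 and 10773, Hoxc13 at 6466 and 5475, Hoxb3 at 3018 and 2395 and Hoxb2 at 2416 and 2156. In the Hoxd cluster 3 of 8 measured genes were above background, against 6 of 7 in Hoxc. Of the last genes of the clusters, which mark the tail and limb ends, Hoxc13 was bright, while Hoxa13 gave 127 and 11.9, Hoxb13 63.2 and 11.1 and Hoxd13 110.1 and 34.5, each under the limit on at least one array. Hoxa9 and Hoxa7 were higher on the second array by 2.86 and 1.56 log2 units, and Hoxa5, at 1470.0 and 1755, differed by 0.25.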
